A study of Homo sapiens with 12 samples.

Results

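The extracellular vesicles of 2 cancer cell lines, SW1116 and Hutu80, were compared for their microRNA (miRNA) content. The comparison used 4 libraries, 2 per line, of the 12 libraries that the series holds for 6 lines; the other 8 (MDST8, Car-1, HT55 and RCM-1) served as a reference. SW1116 is a colon adenocarcinoma line and Hutu80 a duodenal adenocarcinoma line, which the labels place among the colorectal cancer lines. All lines carried no treatment and grew in the same kind of medium, DMEM/F12 with fetal bovine serum and antibiotics, per the labels. Each line comes from a single tumour, so a difference between SW1116 and Hutu80 is one between 2 lines and cannot be told apart from one between colon and duodenum. The pair was chosen from results on these same counts, with the levels in both lines already known. The adjusted p-values below therefore set a difference against the spread between libraries and give no weight to the choice of pair. Nothing in the labels tells if a line's libraries stem from separate cultures, so this spread may be technical.

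A vesicle is a membrane-bound particle released by a cell, and its RNA can reach other cells. A miRNA is cut from a hairpin precursor, whose left and right arms give the 5p and 3p strands. Usually a single strand, the major arm, is kept in the Argonaute protein and the other is degraded. Bases 2 to 8 of the kept strand, the seed, pair with the messenger RNAs it represses, so miRNAs with a shared seed have overlapping targets. In the gut epithelium miR-200 family members hold cells in an epithelial state by repressing ZEB1 and ZEB2, and miR-192 and miR-194 are typical of differentiated enterocytes. In a pooled preparation, more vesicles that carry a miRNA and more copies per vesicle cannot be told apart.

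The mature sequences of the miRNAs that differed most or that stand for the groups described below are printed here so that their seeds can be compared. They are RefSeq sequences of the GRCh38.p14 assembly, written 5′ to 3′ with the seed in capitals. The first 3 share a seed, as do the next 2, although all 5 belong to the miR-200 family:
miR-200c-3p: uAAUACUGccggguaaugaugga
miR-200b-3p: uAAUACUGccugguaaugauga
miR-429: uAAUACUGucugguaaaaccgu
miR-141-3p: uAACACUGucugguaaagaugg
miR-200a-3p: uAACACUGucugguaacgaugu
Of the other miRNAs that stood higher in SW1116, those printed next have unrelated seeds, apart from miR-221-3p and miR-222-3p and apart from the let-7 members:
miR-192-5p: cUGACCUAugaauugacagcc
miR-194-5p: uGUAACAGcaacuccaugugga
miR-203a-3p: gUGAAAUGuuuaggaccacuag
miR-224-5p: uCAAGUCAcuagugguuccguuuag
miR-10a-5p: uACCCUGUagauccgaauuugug
let-7a-5p: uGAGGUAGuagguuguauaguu
let-7b-5p: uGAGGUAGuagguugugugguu
miR-221-3p: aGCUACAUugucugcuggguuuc
miR-222-3p: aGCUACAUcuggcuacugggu
In the miR-30 family, miR-30b-5p and miR-30d-5p stood higher in SW1116. No sequence was matched for them, so their seeds are not compared here. The miRNAs that stood higher in Hutu80 include 3 other 5p strands of this family with a shared seed, and 2 of its 3p strands with another:
miR-30a-5p: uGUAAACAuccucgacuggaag
miR-30c-5p: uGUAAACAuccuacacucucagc
miR-30e-5p: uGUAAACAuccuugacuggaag
miR-30a-3p: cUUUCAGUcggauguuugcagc
miR-30e-3p: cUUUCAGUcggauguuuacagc
They also include miR-20b-5p and miR-106a-5p, which share a seed with miR-17-5p, and miR-363-3p, which shares one with miR-92a-3p:
miR-20b-5p: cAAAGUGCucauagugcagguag
miR-106a-5p: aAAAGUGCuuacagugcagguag
miR-17-5p: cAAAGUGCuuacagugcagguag
miR-363-3p: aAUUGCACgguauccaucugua
miR-92a-3p: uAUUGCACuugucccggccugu

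The SW1116 libraries held 622800 and 498342 counts and the Hutu80 libraries 71831 and 100531, so the pooled depth differed 6.50-fold. Values of a line are given as replicate 1 and then replicate 2 throughout. CPM is a count divided by the library total and multiplied by 1000000. For levels (scaled CPM) the total is that of the 318 tested miRNAs, multiplied by a trimmed-mean (TMM) factor. The factors were 0.720 and 0.641 for SW1116 and 1.28 and 1.19 for Hutu80. These factors lower the reference total of a library in which a few miRNAs hold most counts: the 10 most abundant miRNAs took 76.5% and 78.0% of the SW1116 counts and 63.3% and 61.0% of the Hutu80 counts. On this scale 1 count was worth 2.23 and 3.13 in SW1116 but 10.9 and 8.40 in Hutu80, so low levels were measured less well in Hutu80. A log2 difference is SW1116 minus Hutu80, fitted with edgeR's quasi-likelihood test over 318 miRNAs in all 12 libraries and given with its standard error (SE). A miRNA is called higher or lower at a Benjamini-Hochberg adjusted p below 0.05.

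Of the 318 miRNAs tested, 62 were higher in SW1116 (19.5%) and 78 were higher in Hutu80 (24.5%), 140 in all (44.0%). Counts of called members in the groups below are to be read beside these shares, and several groups lie near them. The median difference over all tested miRNAs was -0.23. The most distant calls were larger toward Hutu80: 30 of its 78 calls were over 16-fold, against 4 of 62 toward SW1116. Large ratios can be measured more readily toward Hutu80, since 3 counts over both libraries are 3.91 scaled CPM in SW1116 but 14.3 in Hutu80. The part of depth in this imbalance was not tested. In 233 of the 318 (73.3%) the 2 SW1116 libraries did not overlap the 2 Hutu80 libraries. This held for all 62 calls toward SW1116 and for 75 of the 78 toward Hutu80. A lack of overlap in a called miRNA therefore adds little to its call. Rank correlations across the tested miRNAs, which describe these libraries only, were 0.958 within SW1116, 0.935 within Hutu80 and 0.692 to 0.739 between the lines. The balance of the calls depends on the scaling. With library totals in place of TMM factors the median moved to -1.08, and 32 miRNAs were higher in SW1116 and 120 in Hutu80, so that 21.1% of the calls lay toward SW1116 against 44.3% with TMM. Differences below are relative to the TMM scale, and each miRNA named below as higher in a line whose call ended with library totals is said to have lost it there; these calls also ended in limma's test of the deposited log2 values, which rest on library totals. Without Hutu80 replicate 2 the calls toward Hutu80 fell to 51. Over 14 alternative settings, 27 of the 62 calls toward SW1116 and 42 of the 78 toward Hutu80 stayed called in the same direction in each setting that tested them. A call of a miRNA named below as higher in a line stayed in each of them unless at least one setting that ended it is given. By sequence, the median GC content was 45.5% over the 57 of 62 calls toward SW1116 with a matched RefSeq sequence. It was 52.2% over 73 of 78 toward Hutu80 and 50.0% over 156 of the 178 others.

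**Figure D1:**
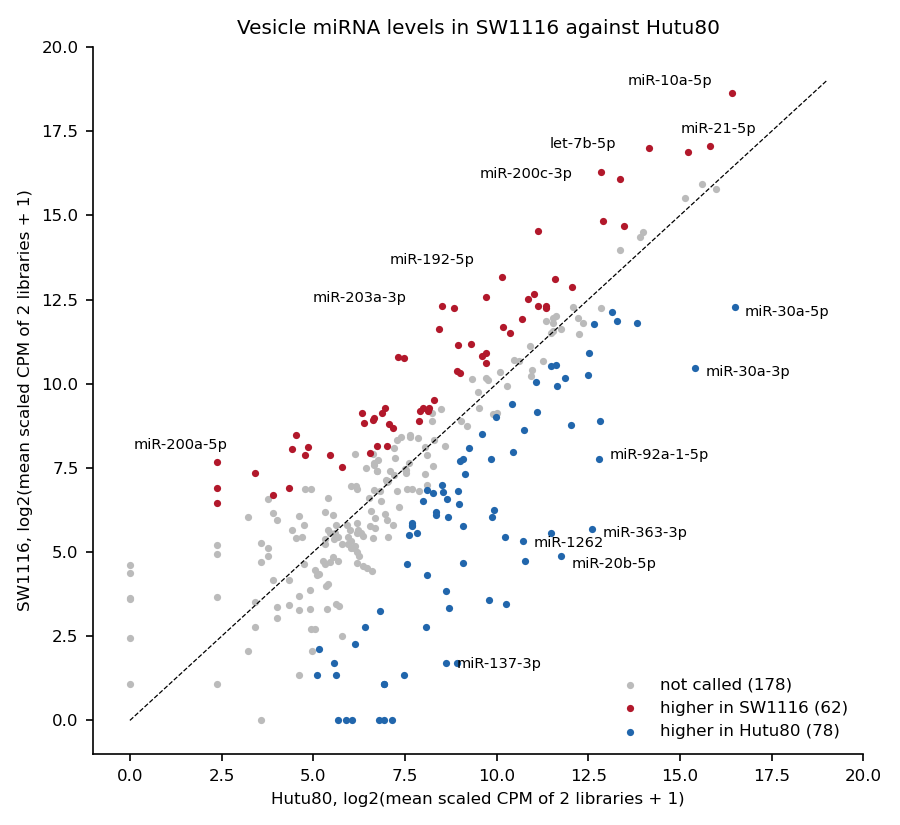
Mean level of each of the 318 tested miRNAs in Hutu80 (horizontal) and SW1116 (vertical), both as log2(mean scaled CPM of 2 libraries + 1), with the diagonal of equal level dashed. The 62 miRNAs called higher in SW1116 are red, the 78 called higher in Hutu80 blue and the 178 others grey; miR-10a-5p lies at the top and miR-30a-5p far to the right of the diagonal.

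All 7 tested members of the miR-200 family were higher in SW1116, with a median log2 difference of 3.40. The most abundant was miR-200c-3p, at 69837 and 90859 scaled CPM in SW1116 and 8030 and 6560 in Hutu80. It made up 5.02% and 5.82% of the SW1116 counts and 1.02% and 0.777% of the Hutu80 counts. The lines did not overlap, and the difference was 3.46 ± 0.35 (edgeR adjusted p = 1.6e-08). Its neighbour in family, miR-200b-3p, had 23272 and 23882 scaled CPM in SW1116 and 2155 and 2301 in Hutu80, a difference of 3.40 ± 0.32 (edgeR adjusted p = 7.4e-09). For miR-200a-3p the levels were 1878 and 1561 in SW1116 and 175 and 176 in Hutu80, a difference of 3.29 ± 0.42 (edgeR adjusted p = 6.3e-07). The 3 miRNAs with the AAUACUG seed (miR-200b-3p, miR-200c-3p and miR-429) and the 2 with the AACACUG seed (miR-141-3p and miR-200a-3p) thus moved in the same direction. The scarcer members miR-429 and miR-141-3p differed by 3.90 ± 0.66 and 3.06 ± 0.70, and in each line their libraries also stood apart. The rarest, miR-200a-5p, rested on 68 and 82 counts in SW1116 and 0 and 1 in Hutu80. Without Hutu80 replicate 2, which held the only count, its difference went from 5.28 to 8.73, and that of miR-141-3p from 3.06 to 4.68. On GRCh38, the hairpins of miR-200b, miR-200a and miR-429 lie between genes on chromosome 1 (1167104 to 1169087, plus strand), and 5 of their 5 tested strands were higher. Those of miR-200c and miR-141 lie in an intron of the noncoding gene MIR200CHG on chromosome 12 (6963699 to 6964191, plus strand), with 2 of 2 higher.

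Epithelial miRNAs of the gut followed the same direction in part. Of 7 tested intestinal epithelial miRNAs, 4 were higher in SW1116 and 2 in Hutu80, with a median of 1.46. The enterocyte miRNA miR-192-5p was at 10775 and 7768 scaled CPM in SW1116 and 1225 and 1025 in Hutu80. It differed by 3.04 ± 0.31 with no overlap of the lines (edgeR adjusted p = 1.8e-08). For miR-194-5p the levels were 5748 and 3946 in SW1116 and 470.4 and 445 in Hutu80, a difference of 3.40 ± 0.32 (edgeR adjusted p = 7.7e-09). The hairpin of miR-192 lies in an exon of MIR194-2HG on chromosome 11 (64891137 to 64891246, minus strand), next to one of the copies of miR-194. Both markers were therefore present in each line, with SW1116 higher. The enteroendocrine miR-375-3p, at 1224 and 1451 in SW1116 and 394 and 571 in Hutu80, differed by 1.46 ± 0.32 (edgeR adjusted p = 5.6e-04); this call ended with library totals. The 2 members higher in Hutu80 were the strands of miR-31, a miRNA often raised in colorectal tumours. The 5p strand had 161 and 269.6 scaled CPM in SW1116 and 427 and 655 in Hutu80 (-1.34 ± 0.39, edgeR adjusted p = 0.0068). Its call ended when SW1116 replicate 1 or Hutu80 replicate 2 was left out, without the filter on low counts and at equal depth. The 3p strand rested on 3 and 0 counts in SW1116 and 1 and 7 in Hutu80, and its call ended in 6 of the 12 settings that tested it, among them without SW1116 replicate 2 or Hutu80 replicate 2 and in DESeq2. Of the 4 calls toward SW1116, that of miR-194-3p also ended with library totals and without SW1116 replicate 2.

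Markers of stratified epithelium were higher in SW1116 as well. The keratinocyte miRNA miR-203a-3p was at 5529 and 4523 scaled CPM in SW1116 and 328 and 395 in Hutu80, the lines did not overlap, and the difference was 3.79 ± 0.34 (edgeR adjusted p = 5.4e-09). The basal-cell miRNA miR-205-5p was at 509 and 727 in SW1116 and 120.3 and 126 in Hutu80 (2.32 ± 0.46, edgeR adjusted p = 2.0e-04). Of the 3 tested members of this list, 2 were called, and miR-203b-3p, with 27 and 22 counts in SW1116 and 0 and 2 in Hutu80, was not (2.73 ± 1.14). The pair miR-224 and miR-452, both in GABRE on the X chromosome (151958578 to 151959712, minus strand), was higher in SW1116 too. Here miR-224-5p reached 4917 and 7188 scaled CPM in SW1116 against 952 and 714 in Hutu80 (2.86 ± 0.32, edgeR adjusted p = 8.0e-08). miR-452-5p, with 67 and 55 counts in SW1116 and 1 and 1 in Hutu80, differed by 4.01 ± 1.12.

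The miRNA with the largest share in SW1116 was miR-10a-5p, which is encoded within an intron of HOXB3 on chromosome 17 (48579838 to 48579947, minus strand). It took 28.8% and 26.4% of the SW1116 counts and 11.5% and 10.2% of the Hutu80 counts. In scaled CPM it was at 399890 and 411972 in SW1116 and 90301 and 85770 in Hutu80, a difference of 2.21 ± 0.27 (edgeR adjusted p = 4.6e-07). The other arm of the same hairpin, miR-10a-3p, was at 487 and 486 in SW1116 and 76.6 and 118 in Hutu80 and differed by 2.30 ± 0.47 (edgeR adjusted p = 3.0e-04), close to its partner. Of 6 tested miRNAs encoded in the HOX clusters, 4 were higher in SW1116 and none in Hutu80. The other 2 of these 4 calls, miR-10b-5p (0.96 ± 0.27) and miR-196b-5p (1.12 ± 0.39), ended with library totals, and that of miR-196b-5p also ended without SW1116 replicate 1 and at equal depth. Without Hutu80 replicate 1 the difference of miR-10b-5p went from 0.96 to 1.46.

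Among the let-7 miRNAs, which repress growth regulators such as LIN28 and RAS, the members differed in size of change rather than together. let-7b-5p was at 114532 and 148282 scaled CPM in SW1116 and 16793 and 19813 in Hutu80, with no overlap and a difference of 2.84 ± 0.33 (edgeR adjusted p = 1.6e-07). let-7a-5p was at 110304 and 129198 in SW1116 and 36004 and 39761 in Hutu80 (1.66 ± 0.32, edgeR adjusted p = 1.5e-04). The similarly abundant let-7f-5p, at 62090 and 63309 in SW1116 and 47404 and 51343 in Hutu80, was not called (0.34 ± 0.29, edgeR adjusted p = 0.35), and let-7c-5p lay on the other side of 0 (-0.61 ± 0.32, edgeR adjusted p = 0.13). Of 12 tested strands, 4 were higher in SW1116 and none lower, with a median of 0.36. With library totals 3 were called higher and 3 lower, with a median of -0.49; let-7c-5p was then called higher in Hutu80 (-1.47, edgeR adjusted p = 2.1e-04), and the call of let-7d-5p toward SW1116 ended, as it did without SW1116 replicate 2. Summed over the 9 strands with the GAGGUAG seed, the family stood at 310338 and 369170 scaled CPM in SW1116 and 119610 and 134291 in Hutu80. let-7a, let-7b and let-7f differ from each other by few bases, and whether the counting separated them fully is not given in the sources used here.

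The X-linked pair miR-221 and miR-222 share a seed and repress the cell cycle inhibitor CDKN1B. miR-222-3p was at 53447 and 85668 scaled CPM in SW1116 and 10711 and 10532 in Hutu80, and the lines did not overlap. Its difference was 2.71 ± 0.30 (edgeR adjusted p = 7.7e-08). miR-221-3p was at 27792 and 30315 in SW1116 and 7242 and 8038 in Hutu80 (1.93 ± 0.26, edgeR adjusted p = 1.9e-06). Yet the other strand of miR-221 went the opposite way: miR-221-5p was at 628 and 514 in SW1116 and 1827 and 2595 in Hutu80, a difference of -1.95 ± 0.32 (edgeR adjusted p = 2.8e-05).

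Other large differences toward SW1116 concerned miRNAs of no common family. miR-574-5p, from an intron of FAM114A1 on chromosome 4, was at 3214 and 3147 scaled CPM in SW1116 and 339 and 353 in Hutu80 (3.20 ± 0.36, edgeR adjusted p = 1.2e-07). For miR-335-3p the levels were 1583 and 1934 in SW1116 and 120.3 and 193 in Hutu80 (3.46 ± 0.44, edgeR adjusted p = 6.3e-07). miR-338-5p rested on 127 and 88 counts in SW1116 and only 2 and 4 in Hutu80 (3.28 ± 0.76), and miR-184 on 60 and 126 in SW1116 and 3 and 1 in Hutu80 (3.73 ± 0.97); the miR-184 call ended without SW1116 replicate 2. The oncogenic miR-21-5p, second in SW1116 with 10.0% and 8.73% of the counts, was at 139686 and 136342 scaled CPM in SW1116 and 57557 and 57651 in Hutu80. Its difference of 1.26 ± 0.32 (edgeR adjusted p = 0.0022) lost its call with library totals, where its shares in Hutu80, 7.32% and 6.83%, were closer to those in SW1116.

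**Figure D2:**
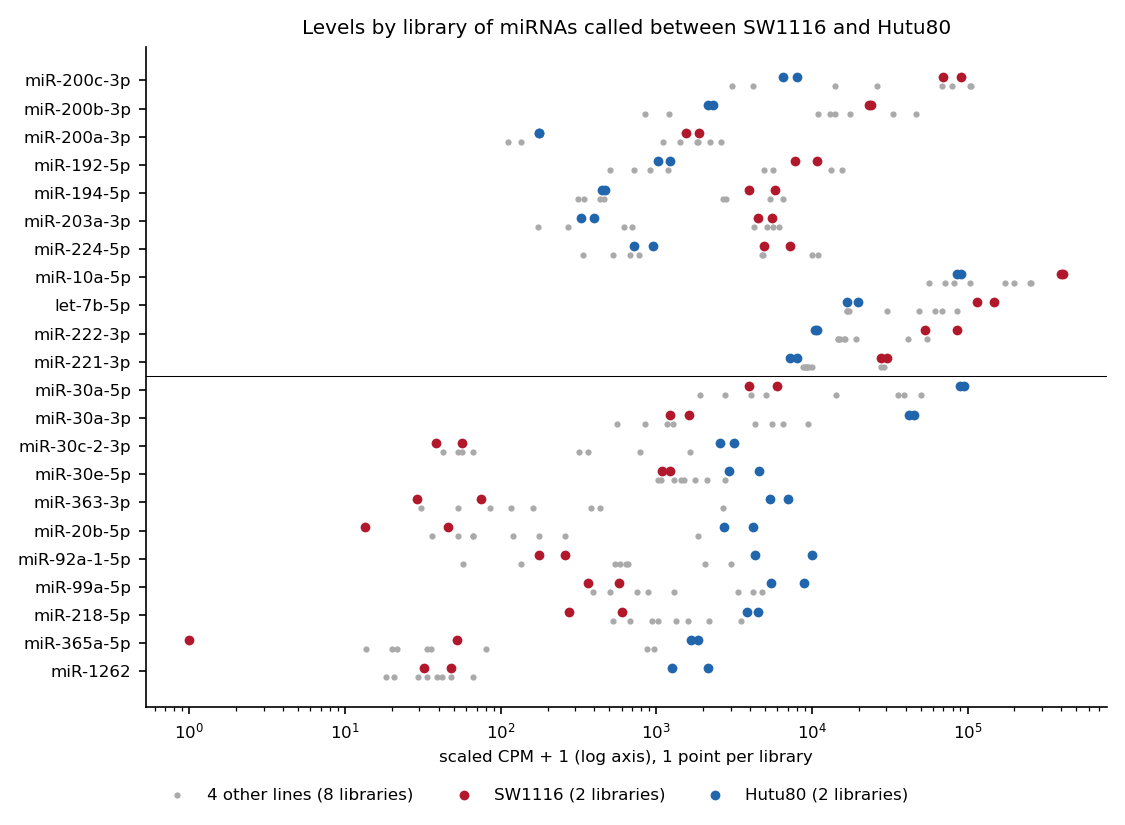
Scaled CPM + 1 on a log axis for 22 miRNAs, 1 point per library, with SW1116 in red, Hutu80 in blue and the 8 libraries of the 4 other lines in grey below them. In each row the 2 red points lie apart from the 2 blue points; miR-10a-5p in SW1116 and miR-30a-3p in Hutu80 also lie outside all grey points.

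The miR-30 family, whose members restrain the epithelial-to-mesenchymal transition and autophagy genes, was divided. Of 9 tested strands, 7 were higher in Hutu80 and 2 (miR-30b-5p and miR-30d-5p) in SW1116. The 2 calls toward SW1116 ended with library totals, and that of miR-30b-5p also without SW1116 replicate 1 or Hutu80 replicate 2. The most abundant in Hutu80, miR-30a-5p, took 12.04% and 10.6% of its counts against 0.429% and 0.251% in SW1116. In scaled CPM it was at 5960 and 3921 in SW1116 and 94579 and 89390 in Hutu80, a difference of -4.22 ± 0.39 (edgeR adjusted p = 6.1e-09). The opposite arm, miR-30a-3p, was at 1624 and 1216 in SW1116 and 41737 and 45086 in Hutu80, with no overlap and a difference of -4.93 ± 0.34 (edgeR adjusted p = 7.2e-11). A further strand far apart was miR-30c-2-3p, at 55.8 and 37.6 in SW1116 and 2571 and 3166 in Hutu80 (-5.91 ± 0.47, edgeR adjusted p = 7.5e-10). The hairpins of miR-30c-2 and miR-30a lie on the minus strand of chromosome 6 (71376960 to 71377031 and 71403551 to 71403621), in introns of the same noncoding gene, AL136164.2.

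The miR-30 strands from other loci differed less. miR-30e-5p and miR-30e-3p, from an intron of NFYC on chromosome 1 (40754355 to 40754446, plus strand), differed by -1.69 ± 0.33 (edgeR adjusted p = 1.6e-04) and -2.23 ± 0.30 (edgeR adjusted p = 1.8e-06). The difference of miR-30e-5p went from -1.69 to -1.002 without Hutu80 replicate 1. miR-30c-5p, which 2 loci encode, was at 2173 and 1702 scaled CPM in SW1116 and 5448 and 6316 in Hutu80 (-1.60 ± 0.32, edgeR adjusted p = 2.7e-04). miR-30d-5p went the other way, at 26352 and 25857 in SW1116 and 11509 and 11078 in Hutu80 (1.21 ± 0.26, edgeR adjusted p = 5.8e-04). Its opposite strand, miR-30d-3p, rested on 4 and 3 counts in SW1116 and 42 and 45 in Hutu80 and was higher in Hutu80 (-5.44 ± 0.84, edgeR adjusted p = 1.4e-05).

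Among clusters with more than 2 tested strands, the lowest median was that of the miR-106a-363 cluster, an X-linked paralog of the growth-promoting miR-17-92 cluster. It lies in exons of the processed transcript AC002407.1 (X chromosome, 134169378 to 134170278, minus strand), and all 7 of its tested strands that no other locus encodes were higher in Hutu80, with a median of -6.21. miR-363-3p was at 73.7 and 28.2 scaled CPM in SW1116 and 5394 and 7022 in Hutu80 (-6.87 ± 1.09, edgeR adjusted p = 7.1e-04). miR-20b-5p was at 44.7 and 12.5 in SW1116 and 2713 and 4191 in Hutu80 (-6.82 ± 0.85, edgeR adjusted p = 1.6e-05). In both cases the lines stood far apart, and the SW1116 levels rested on few counts, 33 and 9 for miR-363-3p and 20 and 4 for miR-20b-5p. The passenger strands miR-20b-3p (-6.21 ± 0.82), miR-363-5p (-6.09 ± 1.26) and miR-92a-2-5p (-6.71 ± 0.67) shifted by similar amounts. Without SW1116 replicate 1 the difference of miR-92a-2-5p, at 9 and 0 counts in SW1116, went to -11.00. miR-106a-5p (-4.47 ± 0.76) and miR-18b-5p (-6.05 ± 1.36) completed the set.

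With TMM scaling, fewer strands of the paralogous clusters were called. In the miR-17-92 cluster itself (MIR17HG, chromosome 13, 91350605 to 91351391, plus strand), 1 of 6 strands with a single locus was called, and in the miR-106b-25 cluster in MCM7 (chromosome 7, 100093560 to 100094074, minus strand) also 1 of 6. Both were passenger strands, miR-92a-1-5p (-5.05 ± 0.45, edgeR adjusted p = 4.3e-09) and miR-25-5p (a call that ended without Hutu80 replicate 2), while miR-17-5p was not called (-0.81 ± 0.34, edgeR adjusted p = 0.062). miR-92a-1-5p reached 174 and 257 scaled CPM in SW1116 and 4321 and 9936 in Hutu80. The major strand of that hairpin, miR-92a-3p, which the X-linked cluster also encodes, overlapped between the lines, at 42536 and 70547 in SW1116 and 59023 and 71450 in Hutu80 (-0.21 ± 0.28, edgeR adjusted p = 0.56). Summed over the 6 strands with the AAAGUGC seed (miR-17-5p, miR-20a-5p, miR-20b-5p, miR-93-5p, miR-106a-5p and miR-106b-5p), the levels were 5746 and 5169 in SW1116 and 10590.2 and 12918 in Hutu80. Only miR-20b-5p and miR-106a-5p were called among those 6. These counts depend on the scaling: in the list of 18 tested strands of miR-17-92 and its paralogs, 7 were higher in Hutu80 with TMM factors, 14 with library totals and 12 in limma's test, and the median went from -0.89 to -1.73 with library totals.

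**Figure D3:**
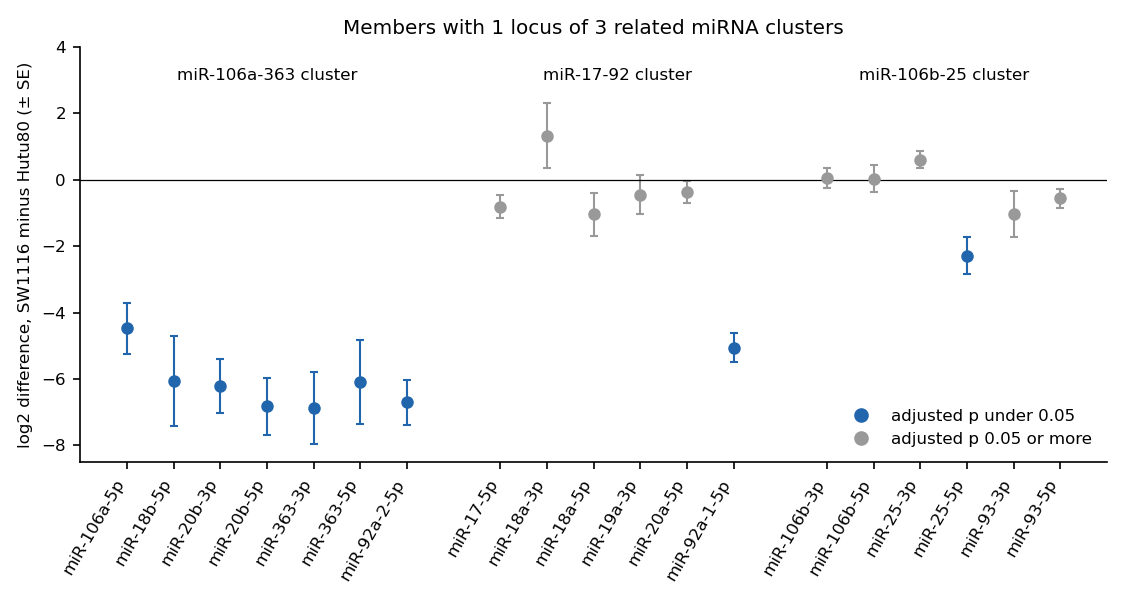
Log2 difference, SW1116 minus Hutu80, with its SE for the tested strands encoded at a single locus in the miR-106a-363, miR-17-92 and miR-106b-25 clusters; blue points are called, grey points are not. The 7 points of the first cluster lie below -4, whereas in the others only miR-92a-1-5p and miR-25-5p are called.

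Several further miRNAs were higher in Hutu80. miR-1262, from an intron of the Wnt secretion gene WLS on chromosome 1 (68183518 to 68183610, minus strand), was at 31.3 and 47.0 scaled CPM in SW1116 and 1258 and 2133 in Hutu80 (-5.44 ± 0.54, edgeR adjusted p = 1.6e-08). The neural miRNA miR-137-3p had 2 and 0 counts in SW1116 and 43 and 38 in Hutu80 despite the lower depth there (-7.01 ± 0.97, edgeR adjusted p = 2.1e-06). Its neighbour in MIR137HG, miR-2682-5p, had 0 and 1 in SW1116 and 17 and 20 in Hutu80 (-6.57 ± 1.33). miR-128-1-5p had 2 and 0 counts in SW1116 and 32 and 73 in Hutu80 (-7.30 ± 0.93, edgeR adjusted p = 6.8e-07), while the strand miR-128-3p, which 2 loci encode, was not called (0.32 ± 0.35). The tumour suppressor miR-218-5p, encoded in SLIT2 and SLIT3, was at 598 and 276 scaled CPM in SW1116 and 4486 and 3822 in Hutu80 (-3.24 ± 0.39, edgeR adjusted p = 2.8e-07). miR-1303 was at 31.3 and 53.3 in SW1116 and 1160 and 1226 in Hutu80 (-4.83 ± 0.49, edgeR adjusted p = 2.1e-08), and miR-345-3p rested on 1 and 3 counts in SW1116 and 20 and 38 in Hutu80 (-5.53 ± 0.77). In none of these called miRNAs did the lines overlap. miR-1246 was higher in Hutu80 as well, at 3028 and 4106 in SW1116 and 9835 and 18998 in Hutu80 (-2.02 ± 0.33, edgeR adjusted p = 2.8e-05), going to -1.16 without Hutu80 replicate 2. Fragments of U2 small nuclear RNA share the sequence of miR-1246, and how reads were assigned is not given in the sources used here.

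In the clusters that pair a miR-99 or miR-100 with a let-7 and a miR-125, the let-7 strands were counted apart. Of the 8 other tested strands, 6 were higher in Hutu80 and 1 in SW1116. The let-7 strands did not follow: let-7a-5p, which other loci also encode, and let-7e-5p were higher in SW1116, and let-7c-5p was not called. The let-7e-5p call ended in limma's test of the deposited log2 values. With let-7e-5p included, the cluster in SPACA6 had 2 of 4 strands higher in SW1116 and 1 in Hutu80, with a median of 1.08. miR-99a-5p was at 578 and 364 scaled CPM in SW1116 and 5481 and 8869 in Hutu80, a difference of -3.92 ± 0.55 with no overlap (edgeR adjusted p = 2.2e-05). miR-100-5p was at 4288 and 3204 in SW1116 and 9682 and 10314 in Hutu80 (-1.42 ± 0.28, edgeR adjusted p = 2.2e-04). miR-125a-5p was the 1 of the 8 strands called higher in SW1116. It was at 1400 and 3191 in SW1116 and 645 and 622 in Hutu80 (1.86 ± 0.38, edgeR adjusted p = 3.3e-04). Its call also ended in limma's test of the deposited log2 values. Hutu80 replicate 2 decided the direction of 2 of the 6: without it miR-125b-5p went from -1.05 to 0.05 and miR-125b-1-3p from -4.02 to 2.65, and the median of the list from -1.95 to -0.50.

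Of 7 tested strands of the miR-193b and miR-365 group, 4 were higher in Hutu80 and none in SW1116, with a median of -1.52. Only 1 was called without SW1116 replicate 1, without Hutu80 replicate 2 or without the filter on low counts, and the median went to -0.39 without Hutu80 replicate 2. The calls of miR-193a-5p, miR-193b-5p and miR-365b-5p were those that ended. The call that stayed was miR-365a-5p, at 51.4 and 0 scaled CPM in SW1116 and 1663 and 1848 in Hutu80 (-5.95 ± 0.67, edgeR adjusted p = 1.2e-07), and without SW1116 replicate 1 its difference went to -11.52, since the other SW1116 library held no count. The 3p strand of miR-193b overlapped between the lines and was not called (-0.02 ± 0.50), nor was miR-365a-3p (0.64 ± 0.61), whose mature sequence miR-365b-3p shares, so that its counts may be split between them. In the miR-532 to miR-502 cluster in CLCN5 on the X chromosome, 4 of 8 strands were higher in Hutu80 and none in SW1116. miR-532-5p was at 927 and 1034 in SW1116 and 3107 and 3267 in Hutu80 (-1.70 ± 0.32, edgeR adjusted p = 1.5e-04), and miR-500a-3p at 96.0 and 75.2 in SW1116 and 558 and 445 in Hutu80 (-2.53 ± 0.47, edgeR adjusted p = 1.0e-04). The calls of miR-660-5p and miR-501-3p ended in several settings, among them without the filter on low counts and without Hutu80 replicate 1 or 2.

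The miR-23, miR-27 and miR-24 clusters had 4 of 8 strands higher in SW1116 and 1 in Hutu80, with a median of 0.53 that turned to -0.30 with library totals, where the calls of miR-23a-3p (0.82 ± 0.26), miR-23b-3p (1.14 ± 0.30), miR-24-3p (1.21 ± 0.33) and miR-27a-3p ended. The call toward Hutu80 was that of miR-23a-5p, and it ended without SW1116 replicate 1. In the fibrosis-linked miR-29 family 2 of 4 were higher in SW1116; both calls ended with library totals, miR-29a-3p (1.52 ± 0.32) and miR-29b-3p (1.71 ± 0.58), the latter also without SW1116 replicate 1 or Hutu80 replicate 1. The 3 tested members of the miR-183, miR-96 and miR-182 cluster were not called. However, 2 were called toward SW1116 without the filter on low counts and with the 4 libraries alone. With at least 100 CPM in 2 libraries, or without the 10 most abundant miRNAs, 1 was called toward SW1116. The median of the cluster went from 0.51 to 0.98 without Hutu80 replicate 1. Its member miR-182-5p was abundant in both lines, at 43239 and 51185 scaled CPM in SW1116 and 36486 and 35578 in Hutu80 (0.39 ± 0.28, edgeR adjusted p = 0.27). Several lists in this paragraph lie near the 44.0% called over all 318 tested miRNAs. Among immune and NF-kB-linked miRNAs, 2 of 6 were higher in SW1116 (miR-21-5p and miR-9-5p) and 1, miR-155-5p, in Hutu80 (-1.03 ± 0.33). The miR-155-5p call ended without SW1116 replicate 2, Hutu80 replicate 1 or Hutu80 replicate 2, and that of miR-9-5p (0.91 ± 0.36) without either SW1116 library, at equal depth and with library totals. Without SW1116 replicate 1 the calls toward Hutu80 in this list went from 1 to 3. Of 6 neural miRNAs, miR-7-5p (1.17 ± 0.29) and miR-9-3p (1.52 ± 0.55) were higher in SW1116 and miR-137-3p in Hutu80. The first 2 calls ended with library totals, and that of miR-9-3p also without SW1116 replicate 1 or Hutu80 replicate 2. Of 2 tested miR-34 members, miR-34a-5p was higher in Hutu80 (-1.32 ± 0.45), a call that ended without SW1116 replicate 2 or Hutu80 replicate 2, and miR-34c-5p had at most 1 count in each of the 4 libraries.

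Markers of other cell types were read against all tested miRNAs, of which 24.5% were called toward Hutu80 and 126 of 318 stood above SW1116 in both Hutu80 libraries. Of 11 tested blood and serum miRNAs, 2 were higher in Hutu80 and none in SW1116, and 8 of the 11 stood above SW1116 in both Hutu80 libraries. Their summed level was 2908 and 1969 scaled CPM in SW1116 and 4912 and 4157 in Hutu80, at most 0.209% and 0.625% of the counts. The erythrocyte miRNA miR-486-5p was at 1679 and 1263 in SW1116 and 3271 and 2444 in Hutu80 (-0.95 ± 0.31, edgeR adjusted p = 0.014), and the myeloid miR-223-3p at 391 and 154 in SW1116 and 624 and 579.5 in Hutu80 (-1.13 ± 0.43, edgeR adjusted p = 0.036). Both calls ended without SW1116 replicate 2, Hutu80 replicate 1 or Hutu80 replicate 2, whereas 4 of the list were called with library totals. The medium held bovine serum, whose vesicles can carry miRNAs of the same sequence, and its part in these levels was not tested. Of 4 tested stromal and muscle miRNAs, miR-143-3p was higher in Hutu80 (-1.28 ± 0.46), a call lost on leaving out any of the 4 libraries. Toward SW1116, 1 member of this list was called without the filter on low counts. The same held with at least 100 CPM in 2 libraries and with the 4 libraries alone. Also in the list, miR-199a-3p and miR-199b-3p share a mature sequence, so they are not separate markers. The summed level of the list was 326 and 529.7 in SW1116 and 579.8 and 470.3 in Hutu80, where the lines overlapped. None of the 5 tested members of the imprinted miR-379 to miR-410 cluster was called (2 were higher in Hutu80 with library totals), with summed levels of 319 and 257 in SW1116 and 558 and 479 in Hutu80.

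Some miRNAs had counts in a single line. Because 3 counts over both libraries correspond to 14.3 scaled CPM in Hutu80 but to 3.91 in SW1116, absence is better bounded in SW1116. miR-3180-5p had 15 and 14 counts in Hutu80 and none in SW1116, and was at least 35.2-fold higher in Hutu80. miR-3180-3p, from the same hairpin family, had 10 and 13 and none, at least 27.9-fold. miR-2277-5p had 3 and 25 and miR-6834-5p 5 and 9, against none in SW1116. The miR-2277-5p call ended without Hutu80 replicate 2 and the miR-6834-5p call without either SW1116 library. miR-217-5p had 0 and 14, all in Hutu80 replicate 2, so that its libraries overlapped and its call ended without that library. In the other direction miR-934 had 21 and 0 counts in SW1116, miR-1293 10 and 12, miR-2276-3p 12 and 9, miR-183-3p 10 and 7 and miR-3679-5p 18 and 6, and none had a count in Hutu80. Of these 5, miR-1293, miR-2276-3p, miR-183-3p and miR-3679-5p were not among the tested miRNAs, so they could not be called. miR-934 had no call either. With no count in SW1116 replicate 2, miR-934 overlapped between the lines and gets no bound. The other 4 were at least 1.56-fold to 2.20-fold higher, with a floor of 3 counts over both Hutu80 libraries.

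The share of a hairpin's counts on its minor arm needs no scaling between libraries. In 58 hairpins both arms were tested, and in 34 of them (58.6%) the share did not overlap between the lines. It was higher in Hutu80 for 23, higher in SW1116 for 11 and overlapping for 24. The largest ratio of Hutu80 to SW1116 was that of miR-30d, where the 3p strand took 0.0339% (0.00923 to 0.0867%) and 0.0364% (0.00750 to 0.106%) in SW1116 and 3.84% (2.78 to 5.15%) and 3.30% (2.42 to 4.39%) in Hutu80, with exact 95% binomial intervals that cover counting error only. For miR-221 the 5p strand took 2.21% (1.96 to 2.48%) and 1.67% (1.42 to 1.94%) in SW1116 and 20.1% (17.5 to 23.0%) and 24.4% (22.1 to 26.9%) in Hutu80. These are the strands that lay higher in Hutu80 while their partners lay higher in SW1116. For miR-99b the 3p strand took 5.32% (4.20 to 6.63%) and 6.93% (5.72 to 8.30%) in SW1116 and 34.3% (29.1 to 39.7%) and 35.6% (31.5 to 39.8%) in Hutu80. For miR-92b the 5p strand took 0.923% (0.300 to 2.14%) and 0.754% (0.245 to 1.75%) in SW1116 and 13.4% (9.38 to 18.2%) and 13.8% (10.4 to 17.8%) in Hutu80. In each of the 4 the intervals of the lines stood apart.

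Smaller shifts in the same direction were seen for miR-181a-3p, with 1.54% (0.989 to 2.28%) and 1.30% (0.653 to 2.32%) in SW1116 and 6.45% (3.87 to 10.0%) and 5.99% (3.83 to 8.85%) in Hutu80, and for miR-25-5p, with 0.360% (0.231 to 0.535%) and 0.463% (0.303 to 0.678%) in SW1116 and 2.35% (1.498 to 3.51%) and 3.61% (2.68 to 4.76%) in Hutu80. The 8 other libraries ranged over 0% to 0.309% for miR-30d-3p, 1.99% to 10.2% for miR-221-5p, 3.88% to 21.6% for miR-99b-3p and 0.0782% to 12.1% for miR-92b-5p, so Hutu80 stood above all of them for these 4. miR-423 went the other way: its 5p strand took 43.8% (42.0 to 45.7%) and 58.9% (57.0 to 60.7%) in SW1116 and 20.7% (17.5 to 24.2%) and 20.02% (17.8 to 22.4%) in Hutu80. Of the 58 hairpins, 8 had both arms called higher in SW1116 and 7 both called higher in Hutu80. In 3 hairpins (miR-221, miR-23a and miR-30d) the major arm was higher in SW1116 and the minor arm in Hutu80. In 1, miR-423, the major arm was higher in Hutu80 and the minor arm in SW1116. The call of miR-423-5p ended with library totals, and that of miR-423-3p without the filter on low counts. Whether depth or library chemistry takes part in these shares was not tested.

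**Figure D4:**
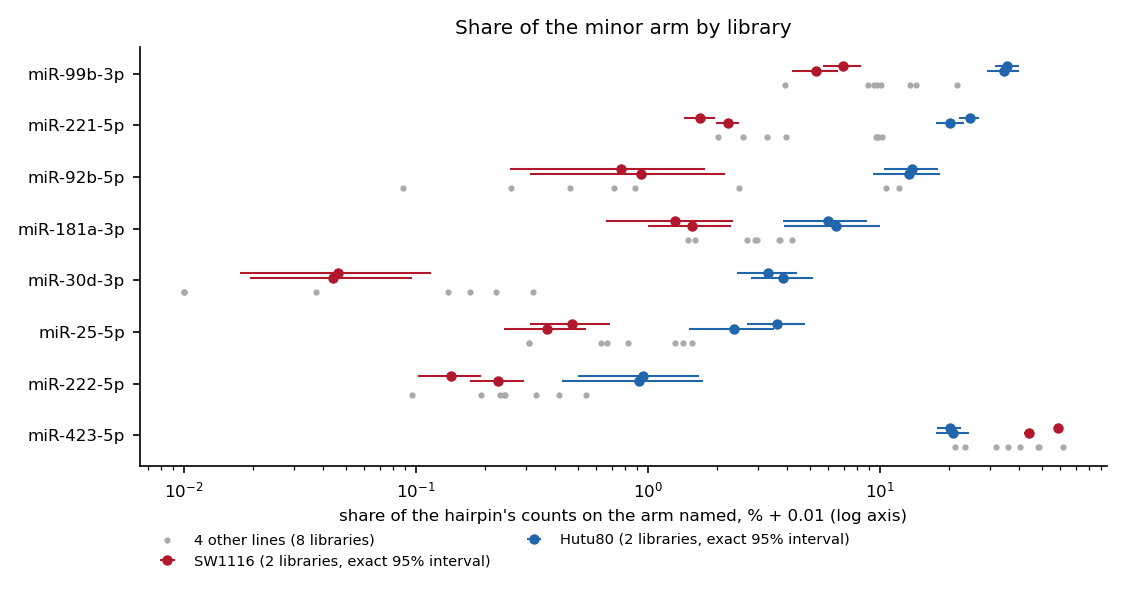
Share of a hairpin's counts on the named minor arm, in % + 0.01 on a log axis, for 8 hairpins; red is SW1116 and blue Hutu80 with exact 95% intervals of each library, and grey are the 8 other libraries. The first 7 shares are higher in both Hutu80 libraries, and miR-423-5p is higher in both SW1116 libraries.

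At full depth more miRNAs had at least 1 count in SW1116, 649 and 573, than in Hutu80, 450 and 509. At the depth of the smallest library, 71831 counts, the expected numbers were 373 and 351 in SW1116 and 450 and 470 in Hutu80, so the order turned. No test was applied to these numbers. When all libraries were thinned to that depth and refitted, 221 to 233 miRNAs were tested over 20 draws. A median of 51.5 were higher in SW1116 (45 to 61) and a median of 61 in Hutu80 (47 to 70), against 62 and 78 at full depth. Of the 62 calls toward SW1116, 59 were tested in the first draw and 50 stayed called, and of the 78 toward Hutu80, 65 were tested and 59 stayed called. The calls of the miR-200 family, miR-192-5p, miR-194-5p, miR-203a-3p, miR-30a-5p, miR-30a-3p and miR-363-3p were among those kept.

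**Figure D5:**
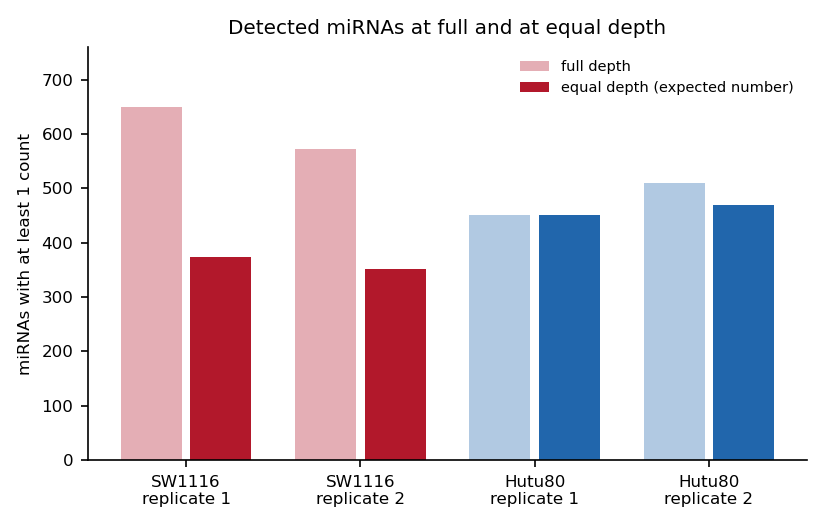
Number of miRNAs with at least 1 count in each of the 4 libraries, at full depth (pale bars) and as the number expected at 71831 counts (dark bars). The SW1116 bars fall from 649 and 573 to 373 and 351, below the Hutu80 bars of 450 and 470.

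Each line of the pair was also set against the 4 other lines. Against their mean on the log scale, 45 of the 318 miRNAs were higher and 30 lower in SW1116 (23.6% called), and 66 were higher and 45 lower in Hutu80 (34.9% called). Without SW1116 replicate 1 the SW1116 counts were 35 and 18, and without SW1116 replicate 2 they were 29 and 13. Without Hutu80 replicate 2 the Hutu80 counts were 41 and 41. Both comparisons share the 8 reference libraries, so their values are set side by side and not compared. For miR-30a-3p the differences were -0.76 ± 0.24 (edgeR adjusted p = 0.024) for SW1116 and 4.17 ± 0.20 (edgeR adjusted p = 1.6e-14) for Hutu80; the 8 other libraries ranged from 559 to 9420 scaled CPM, below both Hutu80 libraries. For miR-1262 they were 0.08 ± 0.44 (edgeR adjusted p = 0.93) for SW1116 and 5.53 ± 0.33 (edgeR adjusted p = 1.5e-12) for Hutu80, and for miR-363-3p -2.01 ± 0.87 (edgeR adjusted p = 0.13) for SW1116 and 4.86 ± 0.59 (edgeR adjusted p = 1.6e-04) for Hutu80. In each of these 3 cases both Hutu80 libraries lay above all 8 libraries of the other lines.

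For miR-10a-5p the differences were 1.65 ± 0.19 (edgeR adjusted p = 4.2e-07) for SW1116 and -0.56 ± 0.22 (edgeR adjusted p = 0.049) for Hutu80, and SW1116 lay above the other 8 libraries, at 56550 to 255387 scaled CPM. For let-7b-5p they were 1.85 ± 0.22 (edgeR adjusted p = 4.6e-07) for SW1116 and -0.99 ± 0.26 (edgeR adjusted p = 0.0044) for Hutu80, again with SW1116 above all 8. For miR-200c-3p they were 1.54 ± 0.23 (edgeR adjusted p = 8.9e-06) for SW1116 and -1.92 ± 0.29 (edgeR adjusted p = 7.6e-06) for Hutu80, and for miR-203a-3p 1.82 ± 0.21 (edgeR adjusted p = 4.2e-07) for SW1116 and -1.97 ± 0.29 (edgeR adjusted p = 6.7e-06) for Hutu80, where both lines lay within the range of the other 8 libraries. miR-192-5p had 1.81 ± 0.20 (edgeR adjusted p = 4.2e-07) for SW1116 and -1.23 ± 0.25 (edgeR adjusted p = 3.6e-04) for Hutu80. Over all tested miRNAs, both SW1116 libraries lay above the other 8 for 17 and below them for 9, and both Hutu80 libraries above for 41 and below for 15.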

How the data were processed

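Small-RNA libraries of extracellular vesicles were made with IsoSeek, which adds unique molecular identifiers, after ultrafiltration and size-exclusion chromatography, per the labels' protocols. Per the submitters' processing notes, reads were placed on hg38. Aligner, miRNA annotation, counter and collapsing of identifiers were not given in the sources used here. The authors deposited whole-number counts of 1636 mature miRNAs in 12 libraries, not normalised, and log2 values that equal log2(CPM + 1) of those counts over all 19632 values. Without collapsing, counts are not independent molecules, so intervals cover counting error only.

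The analysis started from the counts. The edgeR function filterByExpr kept 318 miRNAs with 99.7% of the counts, while 413 were at 0 in every library. TMM scaling and edgeR 4.0.16 (glmQLFit, glmQLFTest; R 4.3.3) fitted 1 mean per line over all 12 libraries without a block, and the SE of a log2 difference is its size over the square root of F. P-values were adjusted by Benjamini-Hochberg over the 318 miRNAs per contrast, with a threshold of 0.05. Medians of lists take the fitted differences. The script was tested on simulated data. Each library was used as a separate sample. The counts of the 2 libraries of a line differed beyond sampling noise (chi-square per degree of freedom 34.2 in SW1116 and 8.10 in Hutu80). This measure grows with depth and does not show that the libraries came from separate cultures. Detection at equal depth is the hypergeometric expectation at 71831 counts, and refits used 20 thinned draws, the first giving the values per miRNA.

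Alternatives were other scaling (RLE size factors, library totals), other filters (none, or at least 100 CPM in 2 libraries), DESeq2 1.42.0, limma 3.58.1 on the log2 values, a replicate block, the 4 libraries alone, thinning, leaving out each library in turn, and removal of the 10 most abundant miRNAs. Named miRNAs were up to 15 called per direction with a mean of at least 200 scaled CPM in the higher line and no overlap, up to 4 of the most abundant per list, the 10 with the largest share per line, and up to 5 per direction at 0 in the other line; further members of clusters, seed groups and hairpins, and the miRNAs without family named singly, were chosen after their values were seen. The 21 lists and the pair itself were chosen with earlier results of these data known. Sequences and loci come from RefSeq (GRCh38.p14; 286 of the 318 matched) and host genes from GENCODE release 29. A strand is called minor where its share of the library counts, averaged over the 4 libraries, is the lower of the 2 arms.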

Additional observations from a re-analysis of the deposited data

How the results depend on the processing

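For the 147 named and tested miRNAs, 2006 refits gave 1787 with the same direction and side of the threshold, 154 without the call, 58 with a new call and 7 with the other direction. With library totals the counts higher and lower were 32 and 120 for SW1116 minus Hutu80, and 24 and 92 for SW1116 minus the 4 other lines; with limma on the log2 values the higher calls were 32 and 21, and the lower calls of the second contrast 90. Without a filter the lower calls were 50 for the pair, 17 for SW1116 and 68 for Hutu80 against the other lines; with at least 100 CPM in 2 libraries, Hutu80 against the other lines had 43 higher and 68 lower. Leaving out 1 library gave 54 to 69 higher and 51 to 67 lower for the pair, 29 to 53 and 13 to 27 for SW1116 against the other lines, and 41 to 68 and 36 to 54 for Hutu80 against them; a line left with 1 library is assumed to vary like the others. Directions turned with library totals and limma for miR-23a-3p (-0.035 and -0.022), miR-181a-5p (-0.81 and -0.83) and the medians of the let-7 family (-0.49 and -0.49) and the miR-23, miR-27 and miR-24 clusters (-0.30 and -0.31). Leaving out 1 library gave miR-217-5p -7.62 to 0.0, miR-125b-5p -1.21 to 0.049, miR-125b-1-3p -6.35 to 2.65, and medians of -2.61 to 0.64 for the miR-34 family, -1.67 to 0.48 for the stromal and muscle list and -0.47 to 0.44 for the neural list. The neural median was also 0.28 without a filter, 0.58 with at least 100 CPM, 0.40 with the 4 libraries alone and 0.72 at equal depth, and the NF-kB and immune median was 0.22 without a filter. The Hutu80 minus SW1116 difference in detected miRNAs was -131.5 at full depth. The causes were not tested. Deviations of same-numbered libraries correlated by -0.23 to 0.27 over 15 pairs of lines (0.09 for SW1116 and Hutu80). Such values do not settle whether same-numbered libraries shared a batch. With the replicate block the counts were 62 higher and 79 lower for the pair, 45 and 33 for SW1116, and 64 and 44 for Hutu80 against the other lines. Depth limits Hutu80 most, where a single count is worth 10.9 or 8.40 scaled CPM.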

Other observations

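Other miRNAs, chosen after their values were seen, kept their calls in each setting that tested them. Both arms of miR-28, from a single hairpin, were higher in SW1116. miR-28-3p was at 5107 and 6724 scaled CPM in SW1116 and 1925 and 1797 in Hutu80 (1.67 ± 0.30, edgeR adjusted p = 6.9e-05), and miR-28-5p at 491 and 426 in SW1116 and 54.7 and 109 in Hutu80 (2.45 ± 0.48, edgeR adjusted p = 2.2e-04). miR-584-5p was at 1889 and 2686 in SW1116 and 536 and 445 in Hutu80 (2.22 ± 0.36, edgeR adjusted p = 1.8e-05). miR-1247-5p, from the DIO3OS transcript in the imprinted region of chromosome 14, was at 556 and 461 in SW1116 and 131 and 67.2 in Hutu80 (2.39 ± 0.45, edgeR adjusted p = 1.3e-04). In all 4 the lines did not overlap.

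Toward Hutu80, the EVL intron miRNA miR-342-3p was at 89.3 and 40.7 scaled CPM in SW1116 and 427 and 386 in Hutu80 (-2.61 ± 0.50, edgeR adjusted p = 1.5e-04). miR-140-3p, known from cartilage, was at 250.1 and 179 in SW1116 and 1007 and 823 in Hutu80 (-2.08 ± 0.36, edgeR adjusted p = 4.1e-05). miR-1275 was at 51.4 and 100.3 in SW1116 and 525 and 1436 in Hutu80 (-3.71 ± 0.53, edgeR adjusted p = 3.8e-06), and miR-4443 at 58.1 and 72.1 in SW1116 and 427 and 1453 in Hutu80 (-3.86 ± 0.53, edgeR adjusted p = 1.9e-06), with the higher value in Hutu80 replicate 2 in both. Again no library of one line overlapped the other line.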
